A study of Mus musculus with 12 samples.

Results

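The extracellular matrix of the liver and the cells that make most of it were followed through 36 genes: 11 collagen genes, 8 genes of proteoglycans, glycoproteins and crosslinking enzymes, and 17 genes of matrix regulation, hepatic stellate cells and contractile cells. They were chosen by symbol from the 4 count tables, and all 36 were found among the 23574 entries. All 36 were also among the 14275 entries with enough counts to be tested. The livers came from C57BL/6 wild type mice that had received concanavalin A (Con A), a lectin of jack beans whose injection causes T cell hepatitis. Mice had been given either no mesenchymal stem cells (MSC) or MSC, and liver RNA was taken at 6 h or 12 h. This gave 3 libraries in each of 4 groups, named Con A 6h and Con A 12h where no MSC were given, with Con A+MSC 6h and Con A+MSC 12h as their counterparts. All 4 groups received Con A, so there is no uninjured liver to compare with. The source, species, dose and route of the MSC are not given in the labels. The labels do not say whether the 3 libraries of a group are separate animals, so p-values here reflect only how far these libraries spread. The series text names hepatocyte RNA, whereas the sample labels name liver tissue.

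Hepatic stellate cells lie between hepatocytes and the sinusoidal endothelium, store vitamin A and, after injury, can turn into contractile cells that secrete collagen. Fibrillar collagens (types I, III and V) form the fibers of scar, type IV collagen forms the sheet under endothelium and epithelium, and type VI collagen forms beaded filaments around cells. Small proteoglycans and glycoproteins coat and space the fibers, lysyl oxidases crosslink them, and TIMP proteins block the proteases that remove them. Portal fibroblasts, smooth muscle of vessels, mesothelium of the liver surface and endothelium also express many of these genes, so the 36 are not a readout of stellate cells alone. In bulk liver RNA, fewer cells of a type and less RNA per cell cannot be told apart.

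Genes used as stellate cell markers, not all of them particular to these cells, were detected in every library. Of the 10 member genes that mark stellate cells (Lrat, Reln, Des, Hgf, Ngfr, Colec11, Hand2, Rgs5, Pdgfrb and Ecm1), none was at 0 in any library. The lowest count of any member was 4, for Lox in Con A+MSC 6h replicate 3. Levels are given as CPM (counts per 1e6 counts, scaled with TMM factors). Per kilobase of exon, Ecm1 and Col4a1 were the most abundant members in Con A 6h, at 41.4 and 34.4 CPM per kb. Hgf was the least abundant, at 0.122 CPM per kb.

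Library totals were 29.7 to 36.1 (in units of 1e6 counts), so 3 counts correspond to 0.0657 to 0.119 CPM. In Con A 12h, mitochondrially encoded genes took 5.59%, 17.3% and 24.9% of the counts in replicates 1 to 3. Their share in the other 3 groups lay between 6.71% and 12.1%. Con A 12h replicate 2 had the lowest value of all 12 libraries for 17 of the 36 genes. Con A+MSC 12h replicate 2 had the highest value of all 12 for 17 of the 36 genes. Counts of calls are therefore also given without these libraries. Replicate numbers only name the libraries.

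**Figure D1:**
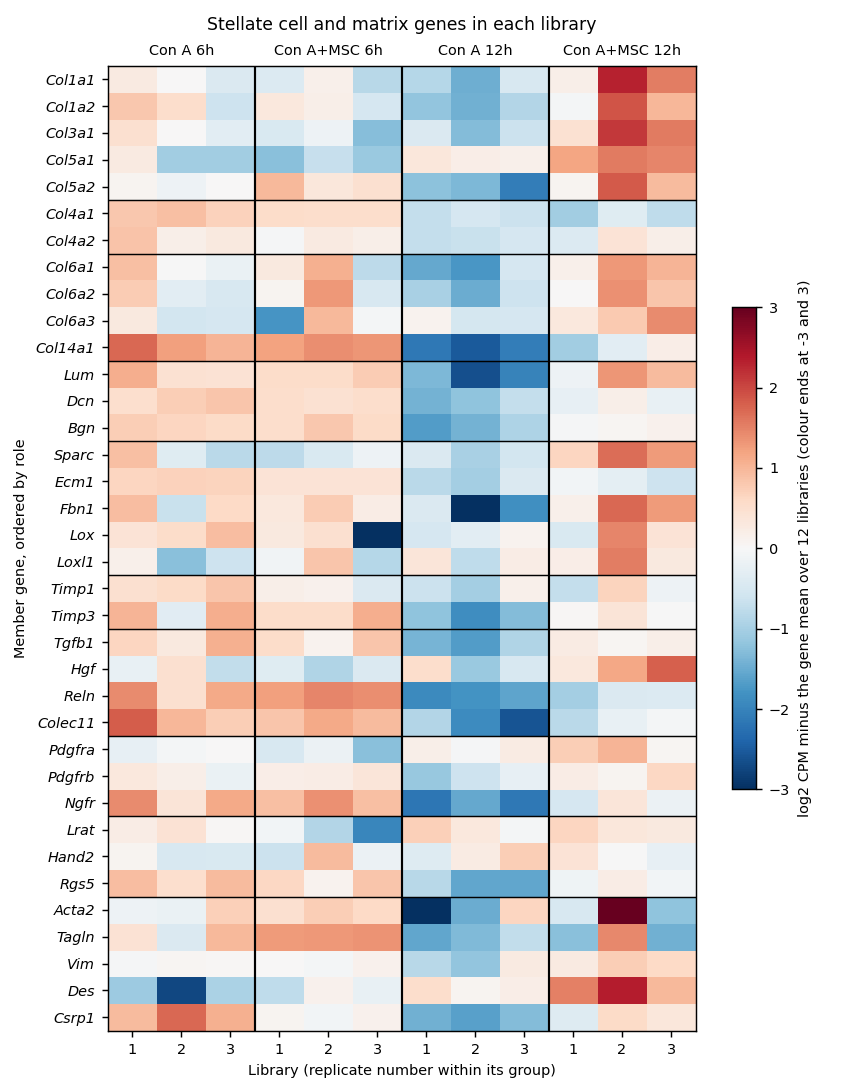
Each row is a member gene and each column a library, with the colour giving log2 CPM minus the mean of that gene over the 12 libraries. Most rows are lowest (blue) in Con A 12h, whereas replicate 2 of Con A+MSC 12h is the darkest red column for the fibrillar collagens, Acta2 and Des.

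At 12 h, 17 of the 36 genes were higher with MSC than without (adjusted p under 0.05, edgeR quasi-likelihood test with Benjamini-Hochberg adjustment over all genes), and none was lower. Over all genes tested, 2.29% were called higher and 1.79% lower in this comparison. The members' median log2 change was 1.38, against 0.00 over all genes, and 34 of the 36 changes were above 0. In 25 of the 36 genes the 3 libraries with MSC all lay above the 3 without, which held for 13.3% of all genes. The 17 genes were Col1a1, Col1a2, Col3a1, Col5a2, Col6a1, Col14a1, Lum, Dcn, Bgn, Sparc, Fbn1, Timp3, Tgfb1, Reln, Ngfr, Rgs5 and Csrp1. Their sizes ran from 2.00-fold for Dcn to 6.50-fold for Lum. The summed level of all 36 genes was 329 ± 44.0 CPM in Con A 12h and 640 ± 154 CPM in Con A+MSC 12h (SD, n = 3 each).

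The number of calls depended on single libraries. It was 4 without Con A 12h replicate 2, 6 without Con A+MSC 12h replicate 2 and 5 without Con A+MSC 12h replicate 3. It was 2 (Bgn alone of the 17) without both Con A 12h libraries of high mitochondrial share, and 0 without replicate 2 of both 12 h groups, where the members' median was still 1.08 and the 17 log2 changes ran from 0.79 to 2.14. Higher calls over all genes also dropped, from 327 of 14275 with all libraries to 39 of 14607 without Con A 12h replicate 2. They were 71 of 14508 without Con A+MSC 12h replicate 2 and 37 of 14551 without Con A+MSC 12h replicate 3. Without replicate 2 of both 12 h groups they were 6 of 14456. Col14a1, Lum, Bgn and Csrp1 passed whichever of the 6 libraries of 12 h was left out. Each of the other 13 lost its call without at least 1 library. In each of the 17, all 3 libraries with MSC lay above the 3 without, so leaving libraries out could not turn the sign.

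**Figure D2:**
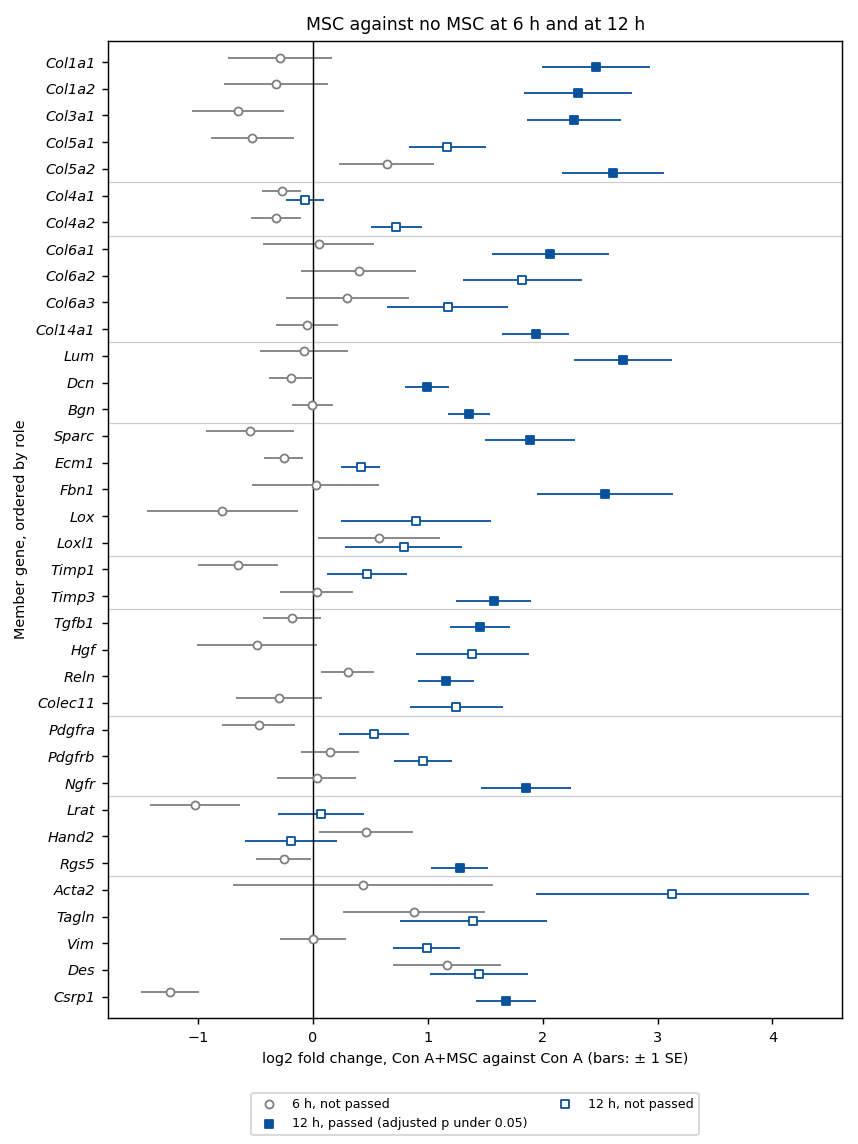
Points give the log2 fold change of Con A+MSC against Con A for each gene at 6 h (grey circles) and at 12 h (blue squares), with bars of 1 SE. No circle is filled, 17 squares are filled, and 34 of the 36 squares lie to the right of 0.

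Promoters of 4 genes that were higher at 12 h with MSC are shown, those of 2 fibrillar collagens, a proteoglycan and a growth factor. They are the 250 bases before the RefSeq start site on the coding strand (build GRCm38.p6), at chr6:4505368-4505617 for Col1a2, chr1:45311288-45311537 for Col3a1, chrX:73483351-73483600 for Bgn and chr7:25686752-25687001 for Tgfb1, all on the plus strand. Capitals mark matches (both strands searched) to the CCAAT motif, to the core GGGCGG of the GC box or to the TATAAA of the TATA box, a match on the other strand reading as the reverse complement.
Col1a2: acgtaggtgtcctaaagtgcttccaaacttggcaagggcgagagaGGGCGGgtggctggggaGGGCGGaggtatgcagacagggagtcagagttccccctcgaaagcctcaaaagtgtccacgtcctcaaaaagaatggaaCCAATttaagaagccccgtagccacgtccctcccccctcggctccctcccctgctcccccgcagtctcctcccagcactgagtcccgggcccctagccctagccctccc
Col3a1: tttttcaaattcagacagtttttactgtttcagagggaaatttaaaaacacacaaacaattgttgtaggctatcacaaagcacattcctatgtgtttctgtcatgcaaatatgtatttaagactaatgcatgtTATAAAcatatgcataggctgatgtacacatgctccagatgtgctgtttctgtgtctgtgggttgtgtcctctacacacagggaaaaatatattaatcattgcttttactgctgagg
Bgn: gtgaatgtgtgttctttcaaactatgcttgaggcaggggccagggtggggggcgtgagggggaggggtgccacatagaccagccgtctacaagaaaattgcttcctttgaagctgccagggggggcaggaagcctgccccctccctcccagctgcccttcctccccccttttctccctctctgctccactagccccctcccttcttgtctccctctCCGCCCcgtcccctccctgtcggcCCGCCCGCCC
Tgfb1: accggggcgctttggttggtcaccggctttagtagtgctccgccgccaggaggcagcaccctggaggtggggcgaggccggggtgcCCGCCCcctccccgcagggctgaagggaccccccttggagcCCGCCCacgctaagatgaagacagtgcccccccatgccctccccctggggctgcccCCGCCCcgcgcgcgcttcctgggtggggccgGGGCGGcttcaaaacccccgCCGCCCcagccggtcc
Col1a2 has a CCAAT at 109 to 105 bases before the start and 2 copies of GGGCGG farther out. Col3a1 has a TATAAA at 117 to 112 bases before its start, and no GGGCGG. Bgn has 3 copies of GGGCGG, of which 2 overlap, and Tgfb1 has 5.
Such stretches were found for 27 of the 36 genes (30 start sites, since 3 genes have 2). GGGCGG was found in 17 of these 30 (56.7%), against 32.7% of the 32851 promoters in the table. CCAAT was found in 8 (26.7%, against 33.8%), and TATAAA in 3 (10%, against 12.4%). The CArG box, the motif bound by serum response factor, was searched only in its strict form CCWWWWWWGG (W for A or T). It was found in none of the 30 and in 1.47% of all promoters. With matches so rare anywhere, its absence from the 30 says little, and variants of the motif were not searched. A match describes the letters only.

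Fibrillar collagens had the highest median change of the 10 roles: 4 of the 5 rose with MSC at 12 h, with a median log2 change of 2.31. Col1a1, the main chain of type I collagen, was at 5.34, 4.42 and 3.27 CPM in Con A 6h and 3.34, 4.91 and 2.46 CPM in Con A+MSC 6h. At 12 h it was at 2.43, 1.61 and 3.18 CPM without MSC and 5.01, 22.0 and 12.7 CPM with MSC. The 12 h groups did not overlap, and the 3 libraries with MSC were far apart, at 13.2 ± 8.52 CPM (SD, n = 3). The change was 5.52-fold (log2 2.46 ± 0.47 SE, adjusted p = 0.0188).

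Col1a2, its partner chain, was at 9.78, 8.02 and 3.63 CPM in Con A 6h, 6.96, 6.28 and 3.96 CPM in Con A+MSC 6h, 2.48, 2.07 and 3.03 CPM in Con A 12h and 5.37, 20.9 and 11.3 CPM in Con A+MSC 12h. It was 4.95-fold higher with MSC at 12 h (log2 2.31 ± 0.47, adjusted p = 0.0242). Col3a1, the single chain of type III collagen, was the most abundant of the 5, at 17.4, 12.6 and 10.1 CPM in Con A 6h, 9.19, 11.2 and 5.14 CPM in Con A+MSC 6h, 9.27, 5.09 and 7.99 CPM in Con A 12h and 17.2, 54.2 and 36.7 CPM in Con A+MSC 12h. Its change with MSC at 12 h was 4.83-fold (log2 2.27 ± 0.41, adjusted p = 0.0156). In all 3 genes, Con A+MSC 12h replicate 2 was the highest library and replicate 1 lay closest to the group without MSC. Without Con A 12h replicate 2, Con A+MSC 12h replicate 2, or without Con A+MSC 12h replicate 3, none of the 3 passed, and their smallest log2 changes among these fits were 1.89, 1.72 and 1.86.

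Type V collagen starts and limits fibrils of type I. Col5a2 was at 1.33, 1.12 and 1.26 CPM in Con A 6h, 2.47, 1.59 and 1.75 CPM in Con A+MSC 6h, 0.536, 0.492 and 0.296 CPM in Con A 12h and 1.33, 4.49 and 2.42 CPM in Con A+MSC 12h. It had the largest rise of the 5, 6.12-fold (log2 2.61 ± 0.44, adjusted p = 0.0125), and lost the call only without Con A 12h replicate 2 among the 6 libraries left out. Its partner Col5a1 was at 2.04, 0.825 and 0.828 CPM in Con A 6h, 0.716, 1.06 and 0.785 CPM in Con A+MSC 6h, 2.17, 1.97 and 1.89 CPM in Con A 12h and 3.86, 5.02 and 4.72 CPM in Con A+MSC 12h. The 12 h groups of Col5a1 did not overlap, but the change of log2 1.17 ± 0.34 did not pass (adjusted p = 0.0697).

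Different fibrillar collagens passed in the 2 time comparisons, and the genes were not tested against each other. Without MSC, Col1a2 fell by 1.50 and Col5a2 fell by 1.46 on the log2 scale from 6 h to 12 h (adjusted p = 0.0176 and 0.0166). The call of Col1a2 was lost without Con A 6h replicate 1, or without Con A 12h replicate 1 or 2, and that of Col5a2 without Con A 12h replicate 3. Col1a1, Col3a1 and Col5a1 did not pass there, at log2 -0.86 ± 0.46, -0.84 ± 0.40 and 0.70 ± 0.35. With MSC, Col1a1, Col3a1 and Col5a1 rose from 6 h to 12 h, 3.71-fold, 4.24-fold and 5.28-fold (adjusted p = 0.00603, 0.00158 and 2.71e-04). Those 3 calls held whichever of the 6 libraries with MSC was left out. Col1a2 and Col5a2 did not pass with MSC, at log2 1.13 ± 0.45 and 0.51 ± 0.40. Col5a1 had the lowest adjusted p of the 5 in that comparison and its 3 libraries at 12 h lay close together.

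The ratio of counts between the chains of a collagen does not depend on library depth or scaling. Col1a1 to Col1a2 was 0.666 ± 0.204 for Con A 6h, 0.628 ± 0.151 for Con A+MSC 6h, 0.935 ± 0.141 for Con A 12h and 1.04 ± 0.0992 for Con A+MSC 12h (SD, n = 3 each). The means were higher at 12 h than at 6 h with and without MSC, although Con A 6h replicate 3, at 0.902, and Con A+MSC 6h replicate 2, at 0.781, lay within the range of Con A 12h. Col5a1 to Col5a2 was between 0.29 and 1.54 in the 6 libraries of 6 h, between 4 and 6.38 in Con A 12h and between 1.12 and 2.90 in Con A+MSC 12h. These ratios are descriptions and were not tested.

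**Figure D3:**
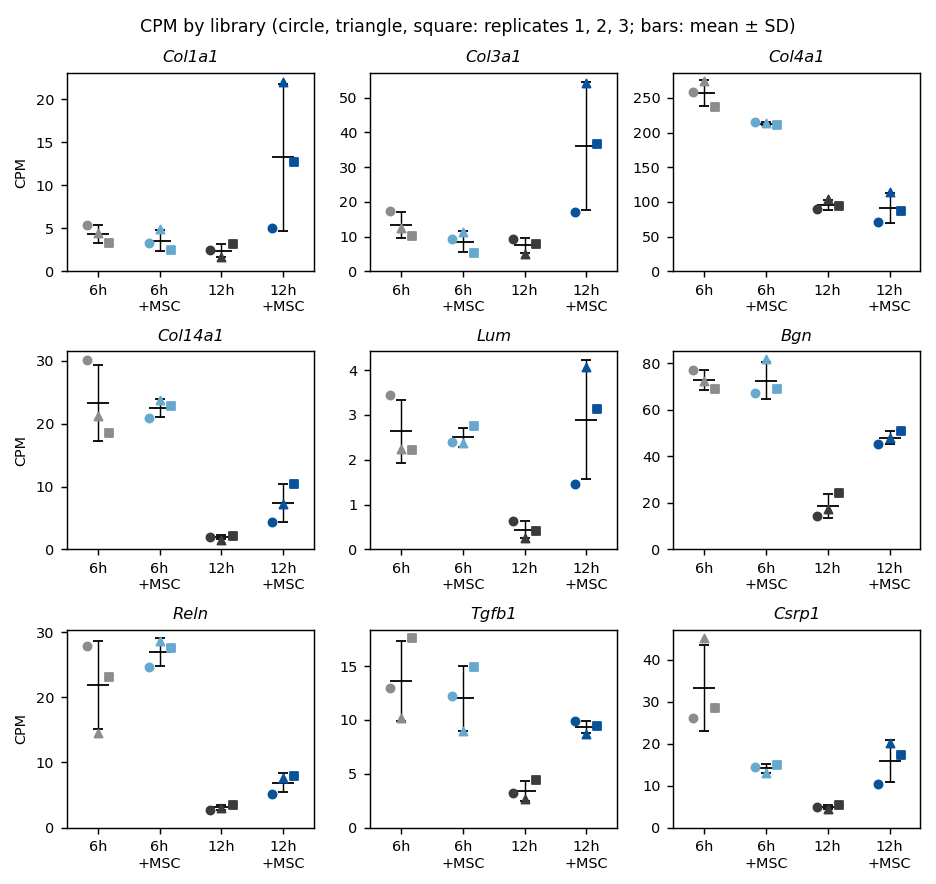
CPM of 9 member genes in the 12 libraries, with symbols for replicates 1 to 3 and bars for the mean ± SD of each group on an axis that starts at 0. Bgn, Col14a1, Reln and Tgfb1 are low in Con A 12h with 3 libraries close together, whereas Col1a1 and Col3a1 spread widely in Con A+MSC 12h.

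Type IV collagen, the network of basement membranes and of the thin matrix under sinusoids, gave no call with MSC at 12 h. Its 2 chains were not tested against the fibrillar collagens. Col4a1 was the member with the highest CPM, at 259, 274 and 238 CPM in Con A 6h, 216, 213 and 210.3 CPM in Con A+MSC 6h, 89.1, 104 and 93.8 CPM in Con A 12h and 71.7, 115 and 87.1 CPM in Con A+MSC 12h. It fell by 1.43 on the log2 scale from 6 h to 12 h without MSC and by 1.22 with MSC (adjusted p = 5.19e-05 and 1.69e-04). At 12 h the MSC groups overlapped, and the log2 difference was -0.07 ± 0.17 (95% confidence interval -0.46 to 0.32). Its head-to-head neighbour Col4a2 on chromosome 8 was at 60.9, 38.0 and 41.2 CPM in Con A 6h, 32.9, 40.9 and 38.4 CPM in Con A+MSC 6h, 20.5, 21.3 and 23.9 CPM in Con A 12h and 25.5, 44.9 and 38.1 CPM in Con A+MSC 12h. Col4a2 fell by 1.09 without MSC (adjusted p = 0.00168), while with MSC its log2 change was -0.05 ± 0.22 and did not pass. Its log2 difference with MSC at 12 h was 0.73 ± 0.22 (adjusted p = 0.0858), with no overlap between the groups.

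The counts of Col4a1 over those of Col4a2 were 5.75 ± 1.48 for Con A 6h, 5.75 ± 0.712 for Con A+MSC 6h, 4.39 ± 0.485 for Con A 12h and 2.55 ± 0.263 for Con A+MSC 12h (SD, n = 3 each). The 3 libraries of Con A+MSC 12h had the lowest ratios of the 12, at 2.29 to 2.81, and the next lowest was 3.92. The genes share 22 exon bases on opposite strands in GENCODE M21, and the ratio was not tested.

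Type VI collagen and the fibril-associated type XIV collagen gave 2 calls among 4 genes. Col14a1, whose protein sits on fibrils of mature matrix, was at 30.1, 21.3 and 18.5 CPM in Con A 6h, 20.9, 23.8 and 22.8 CPM in Con A+MSC 6h, 2.04, 1.57 and 2.15 CPM in Con A 12h and 4.38, 7.30 and 10.4 CPM in Con A+MSC 12h. It had the largest fall of all 36 genes without MSC, by 3.60 on the log2 scale (adjusted p = 7.09e-06), and also fell with MSC, by 1.61 (adjusted p = 7.11e-04). With MSC at 12 h it was 3.84-fold higher than without (log2 1.94 ± 0.29, adjusted p = 0.00767). No library of either 12 h group reached a 6 h value.

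Col6a1, a chain of the beaded filaments, was at 5.41, 2.87 and 2.52 CPM in Con A 6h, 3.50, 6.04 and 1.68 CPM in Con A+MSC 6h, 0.996, 0.853 and 2.03 CPM in Con A 12h and 3.21, 7.12 and 5.83 CPM in Con A+MSC 12h. It was 4.19-fold higher with MSC at 12 h (log2 2.07 ± 0.51, adjusted p = 0.0421) and fell by 1.49 without MSC from 6 h to 12 h (adjusted p = 0.0279). The MSC call was lost without any of 6 libraries: Con A+MSC 12h replicate 2 or 3, Con A 12h replicate 1 or 2 and, through the shared spread, Con A+MSC 6h replicate 1, or without Con A 6h replicate 3. The fall was lost without Con A 6h replicate 1, or without Con A 12h replicate 1 or 2. Its neighbour on chromosome 10, Col6a2, ranged from 0.623 to 4.51 CPM over the 12 libraries, with log2 differences for MSC of 0.40 ± 0.50 at 6 h and 1.82 ± 0.52 at 12 h (adjusted p = 0.0692), and time changes of -1.09 ± 0.52 without and 0.34 ± 0.49 with MSC. Col6a3 ranged from 0.557 to 5.02 CPM, with 0.30 ± 0.53, 1.17 ± 0.53, -0.07 ± 0.54 and 0.80 ± 0.52 in the same order. Neither passed in any comparison.

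All 3 small leucine-rich proteoglycans, which bind collagen fibrils and control their width, were higher with MSC at 12 h. Lum was at 3.44, 2.25 and 2.21 CPM in Con A 6h, 2.39, 2.37 and 2.75 CPM in Con A+MSC 6h, 0.638, 0.262 and 0.407 CPM in Con A 12h and 1.46, 4.07 and 3.14 CPM in Con A+MSC 12h. It had the largest call of all members in this comparison, 6.50-fold (log2 2.70 ± 0.43, adjusted p = 0.00873). From 6 h to 12 h it fell by 2.56 without MSC (adjusted p = 4.57e-04), and with MSC the change of 0.21 ± 0.38 did not pass.

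Its neighbour on chromosome 10, Dcn, which also binds TGF-beta, was far more abundant, at 104, 122 and 129 CPM in Con A 6h, 105, 101 and 105 CPM in Con A+MSC 6h, 27.2, 31.7 and 44.5 CPM in Con A 12h and 61.8, 82.4 and 62.0 CPM in Con A+MSC 12h. Dcn was 2.00-fold higher with MSC at 12 h (log2 1.00 ± 0.19, adjusted p = 0.0188), and lost the call without Con A 12h replicate 2, Con A+MSC 12h replicate 2, or without Con A+MSC 12h replicate 3. It fell from 6 h to 12 h by 1.78 without MSC and by 0.59 with MSC (adjusted p = 2.67e-05 and 0.0248); the second call was lost without any of the 3 Con A+MSC 6h libraries or without Con A+MSC 12h replicate 1 or 3.

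Bgn had the smallest adjusted p of the members at 12 h. It was at 77.2, 72.2 and 68.8 CPM in Con A 6h, 67.1, 81.7 and 68.9 CPM in Con A+MSC 6h, 14.5, 17.2 and 24.5 CPM in Con A 12h and 45.2, 48.0 and 51.0 CPM in Con A+MSC 12h. The 4 groups fell into 3 levels: the 6 h groups overlapped, at 72.7 ± 4.24 and 72.5 ± 7.97 CPM, Con A+MSC 12h lay at 48.0 ± 2.92 CPM and Con A 12h at 18.7 ± 5.17 CPM (SD, n = 3 each). The rise with MSC was 2.57-fold (log2 1.36 ± 0.18, adjusted p = 0.00667). The falls in time were 1.96 without and 0.59 with MSC on the log2 scale (adjusted p = 1.09e-05 and 0.0187); the second was lost without Con A+MSC 6h replicate 2, or without Con A+MSC 12h replicate 1 or 2.

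Among glycoproteins and crosslinking enzymes, Sparc and Fbn1 were higher with MSC at 12 h and Ecm1, Lox and Loxl1 did not pass. Sparc, a collagen-binding glycoprotein, was at 45.2, 18.8 and 13.8 CPM in Con A 6h, 14.0, 17.6 and 21.6 CPM in Con A+MSC 6h, 17.6, 12.3 and 16.4 CPM in Con A 12h and 37.4, 76.1 and 57.9 CPM in Con A+MSC 12h. It was 3.70-fold higher (log2 1.89 ± 0.39, adjusted p = 0.0256). It also rose with MSC from 6 h to 12 h, 3.22-fold (adjusted p = 0.00452), and did not pass without MSC, at -0.75 ± 0.38. Per kilobase it became the second most abundant member in Con A+MSC 12h, at 15.1 CPM per kb, after Ecm1 at 21.0 CPM per kb.

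Fbn1, the backbone of microfibrils, was at 4.01, 1.32 and 3.19 CPM in Con A 6h, 2.62, 3.57 and 2.46 CPM in Con A+MSC 6h, 1.56, 0.262 and 0.592 CPM in Con A 12h and 2.35, 6.97 and 5.11 CPM in Con A+MSC 12h. It was 5.83-fold higher with MSC at 12 h (log2 2.54 ± 0.59, adjusted p = 0.0362) and fell by 1.78 without MSC from 6 h to 12 h (adjusted p = 0.0245), although Con A 6h and Con A 12h overlapped. Of its exon bases, 20.1% are shared with a gene on the opposite strand in GENCODE M21. The calls at 12 h of Sparc and Fbn1 were both lost without Con A+MSC 12h replicate 2 or 3, or without Con A 12h replicate 2 or 3, and that of Fbn1 also without Con A+MSC 6h replicate 1 or 3, or without Con A 6h replicate 3. The fall of Fbn1 was lost without Con A 6h replicate 1 or 3, or without Con A 12h replicate 2 or 3.

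Ecm1, a secreted glycoprotein that stellate cells express and that holds TGF-beta in its latent form, was at 103, 106 and 105 CPM in Con A 6h, 87.5, 88.0 and 88.0 CPM in Con A+MSC 6h, 37.3, 32.6 and 48.8 CPM in Con A 12h and 61.7, 53.9 and 43.1 CPM in Con A+MSC 12h. Its 6 h libraries lay within 2 narrow bands, and it fell by 1.40 without MSC and by 0.73 with MSC (adjusted p = 6.05e-05 and 0.00472). The MSC difference at 12 h, 0.42 ± 0.17, did not pass (adjusted p = 0.177). Lox, which crosslinks collagen, ranged from 0.143 to 3.94 CPM with log2 differences for MSC of -0.79 ± 0.66 at 6 h and 0.90 ± 0.65 at 12 h, and time changes of -0.86 ± 0.66 without and 0.83 ± 0.65 with MSC. Loxl1, which crosslinks elastin, ranged from 0.858 to 6.00 CPM with 0.58 ± 0.53, 0.79 ± 0.51, 0.49 ± 0.53 and 0.70 ± 0.51 in the same order. Neither passed in any comparison.

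The inhibitors of matrix proteases differed from each other. Timp3, which is bound to the matrix, was at 90.8, 35.2 and 94.4 CPM in Con A 6h, 65.5, 65.3 and 95.2 CPM in Con A+MSC 6h, 19.3, 12.1 and 17.9 CPM in Con A 12h and 45.3, 58.0 and 44.0 CPM in Con A+MSC 12h. It was 2.98-fold higher with MSC at 12 h (log2 1.58 ± 0.33, adjusted p = 0.0256), and lost the call without Con A+MSC 12h replicate 2 or 3, or without Con A 12h replicate 2 or 3. It fell by 2.16 without MSC (adjusted p = 2.70e-04), and with MSC its change of -0.62 ± 0.32 did not pass. A share of 21.3% of its exon bases lies opposite Syn3. Timp1, the soluble inhibitor that injury induces, ranged from 4.92 to 17.8 CPM. Its MSC differences were -0.65 ± 0.35 at 6 h and 0.47 ± 0.35 at 12 h, and it fell by 1.06 without MSC (adjusted p = 0.0252) against 0.06 ± 0.35 with MSC. That call was lost without Con A 6h replicate 3, or without Con A 12h replicate 1 or 2.

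Among the secreted factors, Tgfb1, the cytokine that drives collagen synthesis in stellate cells and is also made by many immune cells, was at 13.0, 10.2 and 17.6 CPM in Con A 6h, 12.2, 8.93 and 15.0 CPM in Con A+MSC 6h, 3.19, 2.62 and 4.44 CPM in Con A 12h and 9.91, 8.72 and 9.42 CPM in Con A+MSC 12h. It was 2.74-fold higher with MSC at 12 h (log2 1.45 ± 0.26, adjusted p = 0.0156). The 3 libraries with MSC lay between 8.72 and 9.91 CPM, and replicate 2 was the lowest of them, unlike in the collagens. The call was lost without Con A+MSC 12h replicate 3, or without Con A 12h replicate 2, and was kept, with those of Bgn and Dcn, when the mitochondrial share entered the fit as a covariate. Without MSC Tgfb1 fell by 1.99 (adjusted p = 1.01e-04), and with MSC the change of -0.36 ± 0.25 did not pass.

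Reln, a large glycoprotein secreted in the liver by stellate cells, was at 27.9, 14.5 and 23.1 CPM in Con A 6h, 24.6, 28.7 and 27.6 CPM in Con A+MSC 6h, 2.78, 3.02 and 3.51 CPM in Con A 12h and 5.19, 7.69 and 7.86 CPM in Con A+MSC 12h. It fell in both time comparisons, by 2.82 without and by 1.96 with MSC (adjusted p = 8.60e-06 and 6.54e-05). At 12 h it was 2.23-fold higher with MSC (log2 1.16 ± 0.24, adjusted p = 0.0265), a call lost without Con A 12h replicate 2, Con A+MSC 12h replicate 2, or without Con A+MSC 12h replicate 3. Colec11, a collectin of stellate cells that binds sugars on microbes, was at 9.50, 5.38 and 4.46 CPM in Con A 6h, 4.77, 5.86 and 5.14 CPM in Con A+MSC 6h, 1.46, 0.722 and 0.444 CPM in Con A 12h and 1.54, 2.28 and 2.55 CPM in Con A+MSC 12h. It too fell in both, by 2.85 and by 1.30 (adjusted p = 1.83e-04 and 0.0167), the second lost without Con A+MSC 12h replicate 1. Its MSC difference at 12 h was 1.25 ± 0.41 and did not pass (adjusted p = 0.0981). Hgf, the growth factor for hepatocytes that stellate cells release, ranged from 0.427 to 3.21 CPM with MSC differences of -0.48 ± 0.52 at 6 h and 1.39 ± 0.49 at 12 h. It rose from 6 h to 12 h with MSC, 3.39-fold (adjusted p = 0.0151), against -0.11 ± 0.51 without MSC; that call was lost without Con A+MSC 6h replicate 2, or without Con A+MSC 12h replicate 3.

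Of the 3 receptors, Ngfr passed at 12 h. Ngfr, the low-affinity neurotrophin receptor that marks stellate cells and portal fibroblasts, was at 3.05, 1.49 and 2.52 CPM in Con A 6h, 2.15, 2.93 and 2.14 CPM in Con A+MSC 6h, 0.255, 0.394 and 0.259 CPM in Con A 12h and 0.808, 1.47 and 1.02 CPM in Con A+MSC 12h. It was 3.61-fold higher with MSC (log2 1.85 ± 0.39, adjusted p = 0.0268), lost without Con A+MSC 12h replicate 2 or 3, or without Con A 12h replicate 2 or 3. In time it fell by 2.94 without and by 1.13 with MSC (adjusted p = 1.07e-04 and 0.0215), the second lost without Con A+MSC 6h replicate 2, or without Con A+MSC 12h replicate 1 or 3. Pdgfrb, the receptor for the main mitogen of stellate cells, ranged from 1.94 to 6.64 CPM with MSC differences of 0.15 ± 0.25 at 6 h and 0.96 ± 0.25 at 12 h (adjusted p = 0.0554). It fell by 0.74 without MSC (adjusted p = 0.0291) against 0.07 ± 0.25 with MSC. Pdgfra, its partner on fibroblasts, ranged from 1.07 to 5.15 CPM with MSC differences of -0.47 ± 0.31 and 0.53 ± 0.30. Pdgfra rose 2.34-fold in time with MSC (adjusted p = 0.00787), against 0.22 ± 0.31 without. The fall of Pdgfrb was lost without Con A 6h replicate 1 or 2, or without Con A 12h replicate 1 or 2.

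Of the 3 genes placed under stellate identity, Rgs5 passed with MSC at 12 h and Lrat and Hand2 did not. The other stellate cell markers among the members were Reln, Des, Hgf, Ngfr, Colec11, Pdgfrb and Ecm1. Their log2 changes with MSC at 12 h were all above 0, from 0.42 for Ecm1 to 1.85 for Ngfr. Reln and Ngfr passed. Rgs5, a regulator of G-protein signalling in pericytes and stellate cells, was at 26.1, 19.6 and 26.7 CPM in Con A 6h, 21.3, 14.8 and 24.7 CPM in Con A+MSC 6h, 7.81, 4.66 and 4.70 CPM in Con A 12h and 12.7, 16.1 and 13.0 CPM in Con A+MSC 12h. It was 2.42-fold higher with MSC at 12 h (log2 1.28 ± 0.25, adjusted p = 0.0192), lost without Con A+MSC 12h replicate 2 or 3, or without Con A 12h replicate 2 or 3, and fell by 2.07 without MSC (adjusted p = 5.54e-05) against -0.54 ± 0.24 with MSC. Lrat, the enzyme that esterifies retinol for storage, ranged from 0.464 to 2.96 CPM. Its log2 difference with MSC at 12 h was 0.07 ± 0.37 (95% confidence interval -0.79 to 0.93), and that at 6 h was -1.03 ± 0.39 (adjusted p = 0.350) with no overlap between the groups. From 6 h to 12 h Lrat changed by 0.12 ± 0.38 without MSC and rose 2.33-fold with MSC (adjusted p = 0.0251), a call lost without Con A+MSC 6h replicate 2 or 3, or without Con A+MSC 12h replicate 1. Hand2, a transcription factor of quiescent stellate cells, ranged from 1.87 to 5.61 CPM, with log2 values of 0.47 ± 0.41, -0.19 ± 0.40, 0.54 ± 0.41 and -0.12 ± 0.40 for MSC at 6 h, for MSC at 12 h, and for time without and with MSC. The interval at 12 h was -1.11 to 0.73, and 19.6% of its exon bases lie opposite an antisense gene.

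Among contractile and cytoskeletal genes, Csrp1 alone passed at 12 h. Csrp1, a LIM protein of the actin cytoskeleton, was at 26.2, 45.2 and 28.6 CPM in Con A 6h, 14.4, 13.0 and 15.0 CPM in Con A+MSC 6h, 5.00, 4.40 and 5.51 CPM in Con A 12h and 10.4, 20.2 and 17.3 CPM in Con A+MSC 12h. All 3 libraries with MSC lay below those without at 6 h and above them at 12 h. At 6 h the log2 difference of -1.24 ± 0.25 did not pass (adjusted p = 0.0791), and at 12 h the rise was 3.21-fold (log2 1.68 ± 0.26, adjusted p = 0.00811). Without MSC it fell by 2.75 in time (adjusted p = 1.35e-05), and with MSC the change of 0.18 ± 0.25 did not pass.

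Des, the intermediate filament of stellate and muscle cells, was the only member that rose with time in both arms. It was at 0.824, 0.264 and 0.907 CPM in Con A 6h, 1.03, 1.91 and 1.50 CPM in Con A+MSC 6h, 2.50, 1.84 and 2.00 CPM in Con A 12h and 4.98, 8.94 and 3.41 CPM in Con A+MSC 12h. The rises were 3.20-fold without and 3.89-fold with MSC (adjusted p = 0.00986 and 0.00372), and both held whichever library of the comparison was left out. The MSC libraries lay above the others at 6 h and at 12 h without passing, at log2 1.17 ± 0.47 and 1.45 ± 0.42 (adjusted p = 0.366 and 0.0755).

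Acta2, the smooth muscle actin that marks activated stellate cells and is also the main actin of vessel walls, had the largest log2 change of the 36 at 12 h and did not pass (3.13 ± 1.19, adjusted p = 0.150). It was at 0.128, 0.558 and 2.44 CPM in Con A 12h and 1.12, 24.8 and 0.678 CPM in Con A+MSC 12h, so the size came from replicate 2, which held 1130 of its counts against 43 and 30 in replicates 1 and 3. The other 2 libraries of Con A+MSC 12h lay inside the range of Con A 12h. Tagln, a smooth muscle protein bound to actin, had the same library on top, at 2.32, 14.9 and 2.03 CPM in Con A+MSC 12h, and ranged from 1.86 to 14.9 CPM with log2 values of 0.88 ± 0.62, 1.40 ± 0.64, -1.61 ± 0.65 and -1.10 ± 0.62 for MSC at 6 h, for MSC at 12 h, and for time without and with MSC. Of its exon bases 67.9% are shared with genes on the opposite strand. Vim, the intermediate filament of mesenchymal cells and leukocytes, ranged from 11.1 to 41.6 CPM with 0.01 ± 0.29, 0.99 ± 0.29, -0.47 ± 0.29 and 0.51 ± 0.29 in the same order. At 6 h and in time, Acta2 gave 0.43 ± 1.13, -0.80 ± 1.18 and 1.89 ± 1.11, and none of these 3 genes passed in any comparison.

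At 6 h none of the 36 genes passed in either direction (edgeR, 0 higher and 0 lower), against 0.021% and 0.0771% of all genes. An unadjusted p under 0.05 was reached by 3 genes, Csrp1, Lrat and Des, and DESeq2 called 0 higher and 1 lower. The median log2 difference was -0.13, and 15 of the 36 were above 0. The summed level was 930 ± 58.4 CPM in Con A 6h and 814 ± 21.4 CPM in Con A+MSC 6h (SD, n = 3 each). For several matrix genes the interval at 6 h was narrow enough to bound the difference: the 95% confidence interval for Bgn was -0.41 to 0.41, and for Dcn -0.62 to 0.24 on the log2 scale.

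From 6 h to 12 h without MSC, 20 of the 36 genes fell and 1 rose, against 24.8% and 24.4% of all genes. Among the 36 genes, 24 had their 3 libraries of 12 h all below those of 6 h, against 27.3% of all genes. The median log2 change was -1.25, against 0.02 over all genes. Each role lost genes: both type IV chains, all 3 proteoglycans, both TIMPs, 3 of 4 secreted factors and 2 of 3 receptors fell. Of the 20 calls, 15 were left without Con A 12h replicate 2, the lowest number with any library left out. Over all genes, 3541 were called lower with all libraries and 2791 without that one. The summed level of the members went from 930 to 329 CPM. Markers of some other cell types fell in the same comparison. These were 14 of 20 hepatocyte markers (median log2 change -1.11), 14 of 18 neutrophil markers (-1.95) and 8 of 15 Kupffer cell markers (-1.49). Of endothelial markers, 9 of 20 sinusoidal (-0.85) and 8 of 18 vascular ones (-0.84) fell. Of the same lists, 1, 0, 2, 4 and 1 markers rose, and their part in the members' changes was not tested. The summed neutrophil level was not lower at 12 h, at 4869 to 6186 CPM in Con A 6h and 5058 to 10741 CPM in Con A 12h. The summed levels of the hepatocyte, Kupffer cell and both endothelial lists were lower in Con A 12h, with no overlap between the groups.

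With MSC, 8 genes rose and 8 fell over the same interval, against 20.6% and 20.2% of all genes. The members' share, 22.2% in each direction, was near that background. The median log2 change was 0.27, and it was -0.03 when Con A+MSC 12h replicate 2 was left out. The risers were Col1a1, Col3a1, Col5a1, Sparc, Hgf, Pdgfra, Lrat and Des, and the genes that fell were Col4a1, Col14a1, Dcn, Bgn, Ecm1, Reln, Colec11 and Ngfr. All 8 that fell with MSC also fell without it. Of the other 12 that fell without MSC, none passed with it. Without Con A+MSC 12h replicate 1, 4 genes fell in place of 8. These time comparisons share no library with each other, but each shares its 12 h libraries with the MSC comparison at 12 h. With MSC, 12 of 20 hepatocyte and 8 of 18 neutrophil markers fell and 1 of each rose, while 9 of 20 sinusoidal endothelial markers rose and 2 fell. The summed neutrophil level was 4063 to 4741 CPM in Con A+MSC 6h and 4527 to 8135 CPM in Con A+MSC 12h.

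**Figure D4:**
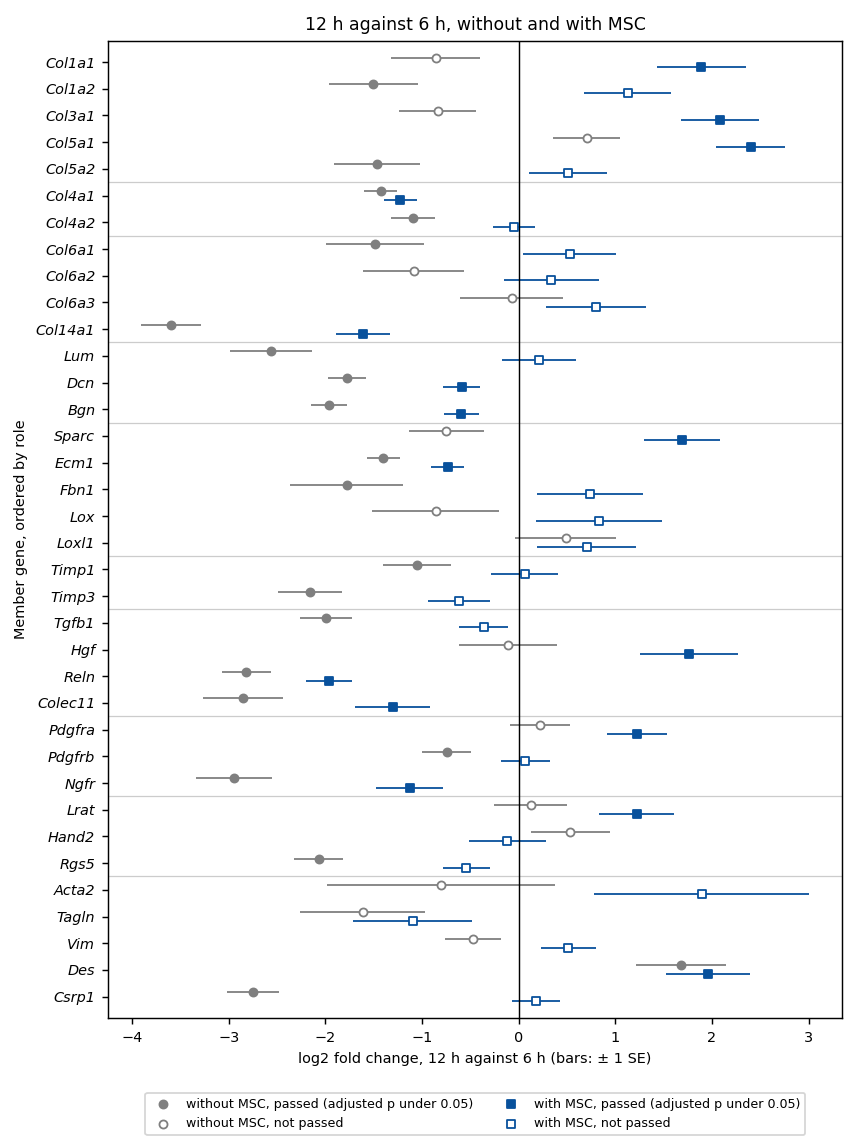
Points give the log2 fold change of 12 h against 6 h for each gene without MSC (grey circles) and with MSC (blue squares), with bars of 1 SE. The squares lie to the right of the circles in 35 of 36 genes, and the square of Des and its circle are both filled to the right of 0.

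The difference between these time courses, which equals the difference of the MSC effect between 12 h and 6 h, passed for Csrp1 alone (log2 2.92 ± 0.36, adjusted p = 0.00912). Over all genes, 0.063% were called in each direction. The median of the 36 differences was 1.53, 35 of 36 were above 0, and 26 had an unadjusted p under 0.05. Those with the next lowest adjusted p were Bgn (1.37 ± 0.25, adjusted p = 0.0590) and Col3a1 (2.92 ± 0.57, adjusted p = 0.0602). For 35 genes the MSC effect is thus not shown to differ between the times. The number of calls was 0 without Con A 12h replicate 2, 5 without Con A 12h replicate 1 or 3, and 7 without Con A+MSC 12h replicate 1. DESeq2 called 15.

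Beyond the 36 genes, 5 other lists of matrix biology were compared at 12 h with against without MSC, where 2.29% of all genes were called higher and 1.79% lower. Of 44 other matrix genes tested, 2 rose and 0 fell, with a median log2 change of 1.13: Hspg2, the perlecan of basement membranes (log2 1.64 ± 0.29 SE, adjusted p = 0.0142), and Prelp, a proteoglycan that anchors them (1.00 ± 0.23, adjusted p = 0.0341). Of 26 genes of collagen processing, 2 rose, both of them helpers of collagen assembly: Serpinh1, the collagen chaperone (1.19 ± 0.25, adjusted p = 0.0264), and Pcolce, which aids the removal of the collagen propeptide (1.24 ± 0.30, adjusted p = 0.0406). Their median was 0.20. Of 31 proteases and regulators, 3 rose, with a median over the list of 0.56: Mmp15 (1.23 ± 0.22, adjusted p = 0.0156), Adamts7 (1.92 ± 0.40, adjusted p = 0.0266) and Timp2 (1.93 ± 0.50, adjusted p = 0.0497).

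In TGF-beta and PDGF signalling, 6 of 39 genes rose and 0 fell, with a median log2 change of 0.41. Those with the smallest adjusted p were Tgfbi, a matrix protein induced by TGF-beta (1.25 ± 0.26, adjusted p = 0.0266), Ltbp4, which binds latent TGF-beta (1.60 ± 0.35, adjusted p = 0.0311), Nrros, which does so on macrophages (1.05 ± 0.24, adjusted p = 0.0356), and Pdgfb, the ligand of Pdgfrb (1.61 ± 0.38, adjusted p = 0.0371). Of 21 integrins and collagen receptors, 3 rose and 1 fell. The collagen receptor Itga2 fell by 2.23 ± 0.38 (adjusted p = 0.0125), while the collagen receptor Ddr2 (1.78 ± 0.32, adjusted p = 0.0156), Itga9 (1.44 ± 0.29, adjusted p = 0.0242) and the hyaluronan receptor Cd44 (1.29 ± 0.29, adjusted p = 0.0317) rose. Of 20 other stellate cell genes, Prelp alone rose, and the median was 0.63, with 19 of 20 changes above 0.

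Markers of other cell types moved in the same comparison, and their part in the members' changes was not tested. Of 20 markers of sinusoidal endothelium, 8 rose and 0 fell at 12 h, with a median log2 change of 1.61. Their summed level was 74.2 to 100 CPM in Con A 12h and 177 to 225 CPM in Con A+MSC 12h, with Dnase1l3, Flt4, Kdr and Oit3 the genes of smallest adjusted p. Of 18 vascular endothelial markers, 5 rose, and the sums were 32.4 to 53.6 CPM and 88.1 to 134 CPM. Of 15 Kupffer cell markers, 4 rose (Adgre1, Marco and Cd5l among them) and Id3 fell, with a median of 1.66. The summed levels of the Kupffer list overlapped, at 218 to 235 CPM without MSC and 212 to 262 CPM with MSC. Of 20 hepatocyte markers none passed, and their median was 0.07. None of 18 neutrophil markers passed, with a median of -0.11 and 6 of 18 above 0. Of 16 T and NK cell markers 1, Cd28, fell and 0 rose, although the median was 0.77 and 14 of 16 changes were above 0.

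Con A+MSC 12h replicate 2 also stood out in markers of several other cell types. Of 14 smooth muscle markers, 9 had their highest value of all 12 libraries in Con A+MSC 12h replicate 2, and of 13 portal fibroblast markers 8 did. The same held for 9 of 20 sinusoidal endothelial, 6 of 19 vascular endothelial and 5 of 11 cholangiocyte markers. Myh11, the myosin of smooth muscle, had 26, 518 and 3 counts in Con A+MSC 12h replicates 1 to 3, and the smooth muscle actin Actg2 had 160 in replicate 2 and 0 in both others. Elastin (Eln) had 27, 311 and 66 counts, dermatopontin (Dpt) 30, 339 and 61, and the bile duct keratin Krt19 37, 332 and 64. The summed level of the smooth muscle list was 288 to 312 CPM in Con A+MSC 12h and 226 to 316 CPM in Con A 12h. As a group, 0 of 10 tested smooth muscle markers, 0 of 11 portal fibroblast markers and 0 of 10 cholangiocyte markers passed at 12 h. Their median log2 changes with MSC were 0.56, 0.93 and 0.89, with 8 of 10, 10 of 11 and 8 of 10 above 0. Without this library 6 of the 17 members still passed, namely Bgn, Col14a1, Col5a2, Csrp1, Lum and Tgfb1.

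Mesothelial markers varied within groups, at 6 h as well. In Con A 6h replicate 1, Con A+MSC 6h replicate 2 and Con A+MSC 12h replicate 3, 9 of the 10 markers had the highest value of their group. Msln was at 2.62, 0.429 and 0.237 CPM in Con A 6h, 1.11, 5.12 and 0.464 CPM in Con A+MSC 6h, 0.792, 0.164 and 0.555 CPM in Con A 12h, and 0.600, 2.39 and 3.07 CPM in Con A+MSC 12h. Of the 36 members, 20 had the highest value of their group in Con A 6h replicate 1 and 20 in Con A+MSC 6h replicate 2. In Con A 12h, most mesothelial markers (6 of 10) were highest in replicate 1, whereas most members (20) were highest in replicate 3. Con A 6h replicate 1 was also the highest of its group for 13 of 15 Kupffer cell and 14 of 20 hepatocyte markers. In Con A+MSC 12h the most members, 25, were highest in replicate 2, and 7 in replicate 3. At 12 h, 0 of 10 mesothelial markers passed, with a median log2 change of 1.97. Their summed level was 282 to 428 CPM in Con A 12h and 204 to 370 CPM in Con A+MSC 12h.

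**Figure D5:**
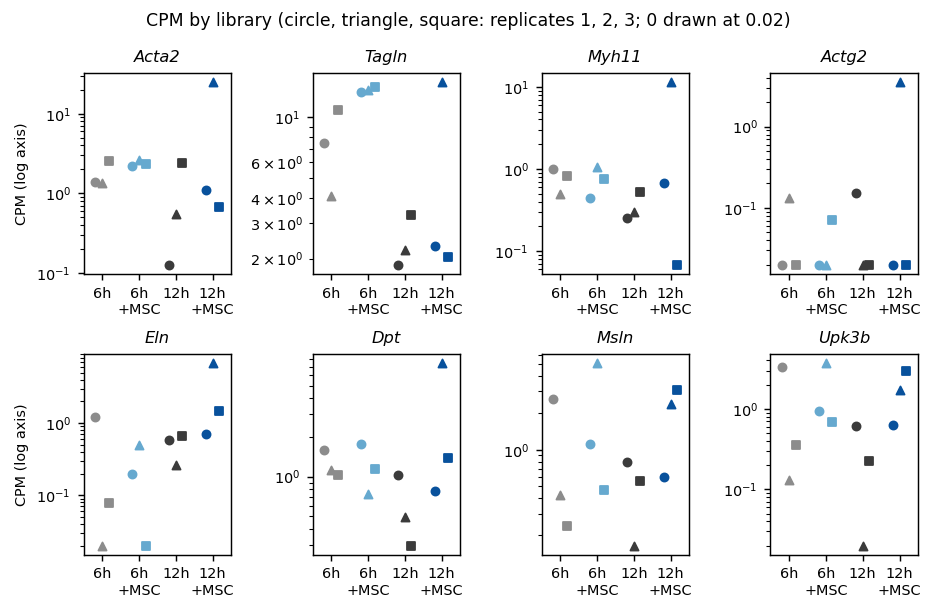
CPM on a log axis, with values of 0 drawn at 0.02, for the members Acta2 and Tagln, the smooth muscle genes Myh11 and Actg2, the fibroblast genes Eln and Dpt and the mesothelial genes Msln and Upk3b. Replicate 2 of Con A+MSC 12h stands above the other 2 libraries of its group in the first 6 panels, whereas Msln and Upk3b are also high in Con A 6h replicate 1 and Con A+MSC 6h replicate 2.

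Genes linked to mesenchymal stromal cells gave 4 calls of 14 tested at 12 h, all higher: Mcam (2.22 ± 0.41, adjusted p = 0.0168), Cd44, Ly6a (1.47 ± 0.38, adjusted p = 0.0494) and Eng (0.71 ± 0.18, adjusted p = 0.0494). Endothelium and leukocytes express these genes too. Prrx1, Twist1, Twist2 and Grem1, transcription factors and a secreted antagonist of mesenchymal cells, had too few counts to be tested. Prrx1 had 13, 46 and 10 counts in Con A+MSC 12h, and Grem1 had 10 in replicate 2 and 0 in the other 11 libraries. The list's summed level was 277 to 345 CPM in Con A 12h and 436 to 517 CPM in Con A+MSC 12h.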

How the data were processed

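Liver RNA was sequenced in 12 libraries, 3 in each of 4 groups. The deposited values are whole-number read counts per gene, made by the authors. StringTie 2.1.2, HISAT2 2.0.4, Bowtie2 2.2.5 and the build GRCm39 are listed, with no role for each, per the submitters' processing notes. Which program counted, and over which annotation, is not given in the sources used here. Totals were 29.7 to 36.1 (in units of 1e6), and read counts without molecular identifiers are not independent molecules, so floors cover counting error only.

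The 4 tables were joined by gene, and 14275 of 23574 entries passed the low-count filter of filterByExpr by group. One quasi-likelihood fit of all libraries was made with edgeR 4.0.16 in R 4.3.3 (TMM scaling, 8 residual degrees of freedom), with Benjamini-Hochberg adjustment over all genes and a threshold of 0.05. SE was the log2 change over the square root of F. The code was tested on simulated data. There DESeq2 made more false calls than its threshold allows, so its larger counts of calls are given as an alternative only. Gene lengths and overlaps came from GENCODE M21 (GRCm38), matched by symbol, and promoters from RefSeq (GRCm38.p6).

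The 36 genes and all lists were chosen with earlier results of these data known. Values in every library are given for members that passed in an MSC comparison and for 6 more that passed in time alone, the others by range; from each other list, up to 4 passing genes with the smallest adjusted p at 12 h are named. A result from the list of proteases is not reported here. Acta2 and Tagln, the marker genes given with counts or CPM, and Cygb and Pth1r were singled out after their values were seen. Alternatives were DESeq2 1.42.0, RLE and total count scaling, no filter, only the groups compared, the mitochondrial share as covariate, a replicate block, and each library left out in turn. Leaving out 2 libraries together was chosen after seeing the data.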

Additional observations from a re-analysis of the deposited data

Results flagged for a closer look

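The MSC effect on Csrp1 differed between 12 h and 6 h by 2.92 on the log2 scale (± 0.36 SE, edgeR interaction term, adjusted p = 0.00912), with all 3 libraries with MSC below those without at 6 h and above them at 12 h. The adjusted p was 0.0506 without Con A 12h replicate 2 and 0.0582 with the mitochondrial share as covariate, so the call was lost in both.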

How the results depend on the processing

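With 3 libraries a group, single libraries decided many calls. Con A 12h spread widely in mitochondrial share, from 5.59% to 24.9%. The members' summed level spread more in Con A+MSC 12h (640 ± 154 CPM) than in Con A 12h (329 ± 44.0 CPM, SD, n = 3 each). In each gene called higher, all 3 libraries with MSC lay above the 3 without, so leaving libraries out could not turn the sign. Under every alternative run, the log2 changes stayed above 0 for the 17 genes called higher at 12 h with MSC. That count was 24 with DESeq2, 23 with total count scaling, 6 with only the groups compared, 3 with the mitochondrial share as covariate, 2 without both Con A 12h libraries of high mitochondrial share, and 0 without replicate 2 of both 12 h groups; it ranged from 4 to 19 with 1 library left out. Over all genes, higher calls for MSC at 12 h were 327 in the first fit and 795 with DESeq2. They were 83 with only the groups compared and 59 with the mitochondrial share as covariate. The cause of these differences between fits was not tested. At 6 h, DESeq2 called 1 gene lower, and the count ranged from 0 to 1 with 1 library left out (1 without Con A 6h replicate 1). In time without MSC, total count scaling called 2 higher; with 1 library left out the higher calls ranged from 1 to 2 (2 without Con A 6h replicate 1) and the lower from 15 to 21. In time with MSC, total count scaling called 3 lower; with 1 library left out the higher calls ranged from 7 to 9 and the lower from 4 to 9. The difference of the MSC effect gave 15 calls with DESeq2, 10 with total count scaling, 3 with no filter, 0 without replicate 2 of both 12 h groups, and 0 to 7 with 1 library left out; with only the groups compared it was not run.

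The median log2 change of all genes was 0.26 for MSC at 12 h, 0.28 in time without MSC, 0.59 in time with MSC and 0.28 for the difference under total count scaling, against 0.00, 0.02, 0.06 and 0.01 with TMM. Calls over all genes were then 734 higher and 95 lower for MSC at 12 h (327 and 255 with TMM), 4301 and 2353 in time without MSC (3479 and 3541), 5789 and 1227 in time with MSC (2936 and 2878), and 187 and 24 for the difference (9 and 9).

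Replicate numbers recur in the 4 groups, but same-numbered libraries did not deviate together: of 18 pairs, 1 had a correlation over 0.1, and the range was -0.226 to 0.130. With the replicate number as a block, 14 members were higher at 12 h with MSC, Col6a1, Fbn1 and Ngfr no longer passing.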

Other observations

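Of 20 stellate cell genes tested outside the 36, 3 rose and 9 fell from 6 h to 12 h without MSC (median log2 change -0.71, 4 of 20 above 0), and 4 rose and 4 fell with MSC (median -0.17). Among those that rose, Cygb, the globin of stellate cells, rose from 6 h to 12 h by 1.31 ± 0.39 (SE) without MSC and by 2.16 ± 0.38 with MSC on the log2 scale (edgeR, adjusted p = 0.0137 and 8.63e-04). Pth1r, the parathyroid hormone receptor, rose by 2.81 ± 0.45 and 2.65 ± 0.43 (adjusted p = 3.26e-04 and 5.07e-04). Both were picked after their values were seen and go against the direction of most of the list without MSC.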
